A study of Mus musculus with 5 samples.

Results

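Mouse co-cultures that had received a virus were compared with co-cultures that had not. The 2 virus arrays were Fos-/- splenocytes carrying a deltaNFAT virus and Fos-/- splenocytes carrying a virus with green fluorescent protein (GFP). The 3 arrays without virus were Fos+/+ splenocytes, Fos-/- splenocytes and Fos+/+ bone marrow. The sides follow the sample titles and take in 5 of the 5 arrays of the series. Every culture held ST2-T stromal cells, received dexamethasone and 1,25-dihydroxyvitamin D3 (the active form of vitamin D) and was harvested whole after 6 days, so each array reads haematopoietic and stromal RNA together, and fewer cells of a type cannot be told apart from less RNA per cell. The labels name neither the kind of virus, nor its dose, nor the promoter of its insert, and do not describe the deltaNFAT construct. The age and number of the mice, and whether infected and uninfected cultures were set up together, are likewise unstated.

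Each condition had 1 array and the arrays of a side are different conditions, so no test was run and no error can be given. Both virus arrays are Fos-/- spleen, and the Fos-/- spleen array without virus is the single array of the same genotype and tissue. A difference between the sides was therefore read only where both virus arrays lay beyond all 3 arrays without virus, that array included. Infection itself, the handling that goes with it and any batch of culture or array cannot be told apart.

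Cells that sense foreign nucleic acid, through cytoplasmic receptors such as the one encoded by Ifih1, make type I interferon. Interferon binds its receptor and activates STAT proteins, which join IRF9 and bind a DNA element called the interferon-stimulated response element (ISRE) in front of many genes. The products of these genes block viral replication, present antigen and attract other leukocytes. In bone, type I interferon is also known to restrain the formation of osteoclasts, which resorb it.

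The values are linear array intensities. Those under an intensity of 20 were set to 20 (the floor) before log2 was taken. A probe set was counted when the lowest array of one side and the highest of the other were at least 2-fold apart, with every array of the brighter side at 40 or more. This 2-fold gap is stricter than a 2-fold difference of means. The ratio is written "at least" where every array of the dimmer side lay at or under the floor. Of 10833 probe sets with 1 gene symbol, 5176 were bright enough in both virus arrays to be counted as higher and 4742 were bright enough in the 3 arrays without virus to be counted as lower. No array had more than 63.7% of its probe sets above the floor. RNA integrity controls for Actb gave ratios (3-prime over 5-prime) of 1.02 to 1.31. The 1st percentile of an array lay between -133 and -77.6, so single values near the floor are uncertain. Of 14 T and NK cell genes 8 were at or under the floor on every array, among them Cd3e, Cd3g, Cd3d and Cd8a, while Cd4 read 25.0 to 167 and Zap70 reached 159 in Fos-/- spleen without virus. Macrophage markers such as Cd68 (1070 to 1819) and collagen genes such as Col1a2 (1877 to 2432) were bright on every array.

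The upward count depended most on the bone marrow array. With it on the side without virus, 51 probe sets read higher in both virus arrays (0.471% of those measured). Without it there were 403 (3.72%). The downward count moved from 37 (0.342%) to 81 (0.748%), but to 126 without Fos-/- spleen, on which it depended most. Without that array the upward count was 95. Hsp90b1, a chaperone of the endoplasmic reticulum chosen as an example after its values were seen, read 229 and 205 in the Fos+/+ and Fos-/- spleen arrays without virus, but 1033 in the bone marrow array, 1066 with deltaNFAT and 1299 with GFP. Whether this likeness of the bone marrow array to the virus arrays is of cells or of arrays was not tested. Counts are for all 5 arrays unless said otherwise.

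Against the matched Fos-/- spleen array alone, 503 probe sets (4.64%) read higher by 2-fold in both virus arrays and 219 (2.02%) lower. Over genes, deltaNFAT read 2-fold above that array in 568 of 8251 (6.88%) and GFP in 527 (6.39%), and below it in 342 (4.14%) and 358 (4.34%). Both did so in 408 (4.94%) and 169 (2.05%), but the comparisons share the array without virus. By any margin, 910 probe sets (8.40%) lay above and 1246 (11.5%) below all 3 arrays without virus.

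The 51 probe sets that read higher stand for 50 genes and the 37 that read lower for 37 genes. Gaps were moderate, with 5 probe sets higher and 1 lower by 4-fold or more. Of the higher probe sets 26 had a virus array under an intensity of 100, and of the lower ones 27 had an array without virus under it. The brightest array without virus was bone marrow for 26 of the higher probe sets, Fos-/- spleen for 17 and Fos+/+ spleen for 8. With deltaNFAT 31 of them read higher than with GFP, and 20 the other way. At the 2-fold limit, Cd48 (2.02-fold) and Pla2g5 (2.01-fold) lay just inside and Uimc1 and Rsad2 (1.99-fold) just outside on the higher side. On the lower side Cyp1a1 (2.04-fold) and Artn (2.01-fold) lay inside, and Acvrl1 and Slc1a5 (1.99-fold) outside.

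**Figure D1:**
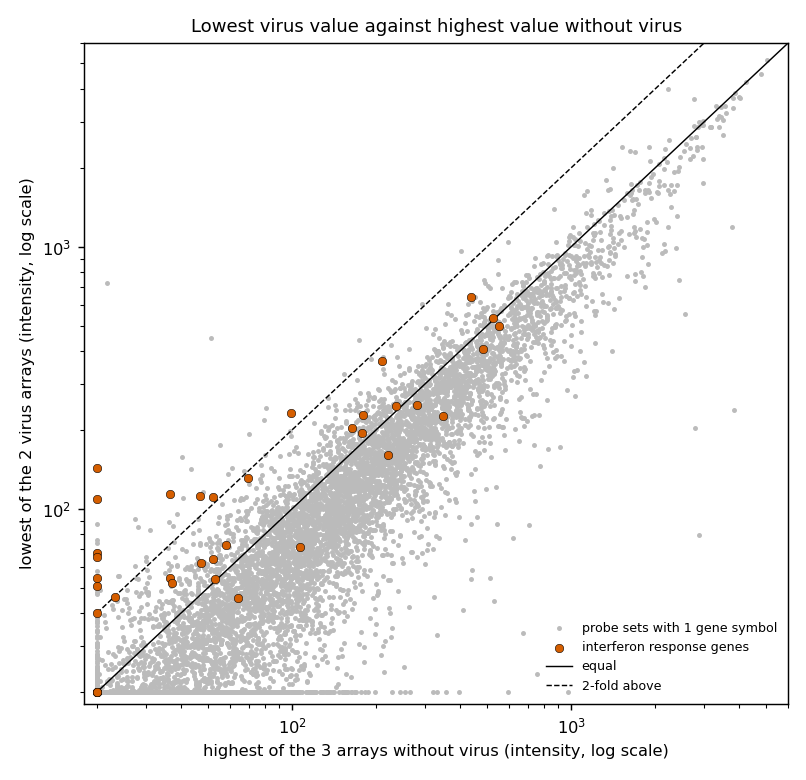
Each point is a probe set with 1 gene symbol; the horizontal axis gives the highest of the 3 arrays without virus and the vertical axis the lowest of the 2 virus arrays, as intensity on log scales with values under 20 drawn at 20. Orange points are the 37 interferon response genes on the array, of which 10 are counted as at least 2-fold above (dashed line); none of the 37 is counted as lower.

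Of the 24 lists, the interferon response genes had the most members counted as higher. Of 37 on the array, 10 showed the 2-fold gap upward and 0 downward, against 0.461% of 8251 genes upward and 0.400% downward. In 25 of the 37 both virus arrays lay above all 3 arrays without virus by any margin, and in 0 below them, against 9.13% and 13.1% of all genes. The median difference of the side means was 1.01 on the log2 scale for the list and 0.00 for all genes. Without the bone marrow array 15 of 37 showed the gap upward (3.95% of all genes) and 0 downward (0.861%), and against Fos-/- spleen alone 17 of 37 did (4.94% of all genes). In 32 of the 37 the deltaNFAT array read above the GFP array, as it did in 4249 of 8251 genes overall. Members that are named without being counted were picked after their values were seen, apart from Rsad2. The list holds known interferon targets and was drawn up with earlier results of these arrays known, so its direction is a description.

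Among the effectors, Isg15, a ubiquitin-like modifier joined to other proteins, was under the floor in all 3 arrays without virus and read 367 with deltaNFAT and 143 with GFP, at least 7.13-fold apart. Usp18, the protease that removes it again, was under the floor in the same 3 arrays and read 89.3 and 54.3, at least 2.72-fold apart. Ifit1, which binds foreign RNA, was under the floor without virus and read 189 and 65.4, at least 3.27-fold apart. In all of these the sides did not overlap and deltaNFAT read above GFP. Mx1, a GTPase that traps viral particles, read 66.1 and 50.9 against values under the floor, at least 2.54-fold apart. Ifit3 read 105 with deltaNFAT and 39.9 with GFP, which kept it out because the second value was under 40, although the 3 arrays without virus were under the floor. Rsad2, the antiviral enzyme viperin, read 84.1 and 46.2 against at most 23.2 and missed the limit at 1.99-fold. Eif2ak2, the RNA-activated kinase PKR, read 80.3 and 54.5 against 36.6 in bone marrow, 1.49-fold apart. Other members did not separate the sides. Mx2 read 117 with deltaNFAT and 71.5 with GFP against 89.9 to 107 without virus. Isg20 read 65.6 and 45.9 against 50.5 to 63.9. Ifit2 and Cxcl10 were above the floor only with deltaNFAT, at 28.7 and 27.5.

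Of the sensors and transcription factors, Ifih1 and Irf9 were counted. Ifih1, the RNA sensor MDA5, was under the floor in both spleen arrays without virus, read 52.2 in bone marrow, 145 with deltaNFAT and 111 with GFP, 2.12-fold apart. Irf9, the DNA-binding partner of the STAT proteins, read 86.6 in Fos+/+ spleen, 98.8 in Fos-/- spleen, 23.2 in bone marrow, 243 with deltaNFAT and 232 with GFP, 2.35-fold apart. Irf9 read nearly the same in both virus arrays. Irf7, which amplifies interferon production, read 189 and 131 against 55.7 to 69.3, 1.89-fold apart and short of the limit. Trim30a, a regulator of innate signalling, read 148 and 114 against at most 36.5, 3.13-fold apart. Its other probe set was under the floor on every array. Irf1 did not separate the sides, with 249 and 255 among values of 214 to 280 without virus.

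The immunity-related GTPases, which attack the vacuoles of intracellular pathogens, were among the widest gaps. Iigp1 was under the floor without virus and read 199 with deltaNFAT and 109 with GFP, at least 5.44-fold apart. Its second probe set read 51.4 and 30.6, again against values under the floor. Ifi47 read 102 and 68.1 against values under the floor, at least 3.40-fold apart. Irgm1 read 157 and 112 against 40.9 to 46.8, 2.39-fold apart, and Irgm2, named here after its values were seen, 219 and 219 against 72.5 to 79.7, 2.75-fold apart. Igtp lay apart by 1.24-fold only. Members of these families are similar in sequence, and probe sets may read more than 1 of them.

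By probe sets with 1 gene symbol, the p200 family and the antigen presentation genes separated by less. Ifi204, a nuclear DNA-binding protein, read 60.1 in Fos+/+ spleen, 31.3 in Fos-/- spleen, 210 in bone marrow, 597 with deltaNFAT and 367 with GFP, 1.74-fold apart. Ifi202b followed the same order, with both spleen arrays under the floor, 164 in bone marrow, 319 and 203, 1.24-fold apart. For these genes bone marrow lay between the spleen arrays and the virus arrays. Probe sets of this family with several symbols, which entered no count, lay wider apart. They were 93321_at, paired with Ifi203 among others (at least 4.26-fold), and 94224_s_at, paired with Ifi204 among others (3.34-fold). Tap1, the peptide transporter, lay 1.27-fold apart, while Tapbp and Psmb8 overlapped. Of 15 probe sets for 10 MHC class I genes, looked at after the values were seen, 9 lay apart upward and 1 downward, against 8.40% and 11.5% of all probe sets, and 0 reached the 2-fold gap. The brightest, for H2-K1, read 2604 and 2402 against 1732 to 1897. Most are family probe sets that cannot tell these genes apart.

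Interferon transcripts were mostly too dim to compare. Of 10 probe sets for type I interferons, again chosen after the values were seen, 1 was bright enough in both virus arrays to be counted as higher, and it overlapped. Ifnb1 was under the floor in all 5 arrays. That probe set, a family probe set for Ifna5, gave 68.9 to 80.3 with virus and 75.3 to 124.5 without. Ifna9 was above the floor only with virus, at 34.4 and 47.5, where the sides did not overlap but the lower value missed the brightness minimum. Ifna2 went the other way, at 23.3 to 36.8 without virus and under the floor with it. A probe set of Ifna4 and that of Ifnab were likewise above the floor only in arrays without virus, at up to 38.0 and 45.0. The receptor chain Ifnar1 read 164 and 205 with virus against 75.7 to 136 without, the sides not overlapping. The other chain, Ifnar2, overlapped by both of its probe sets. These read 89.8 and 107 against 57.4 to 92.7, and 87.1 and 98.3 against 58.7 to 129. An RNA level after 6 days says nothing of earlier interferon.

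**Figure D2:**
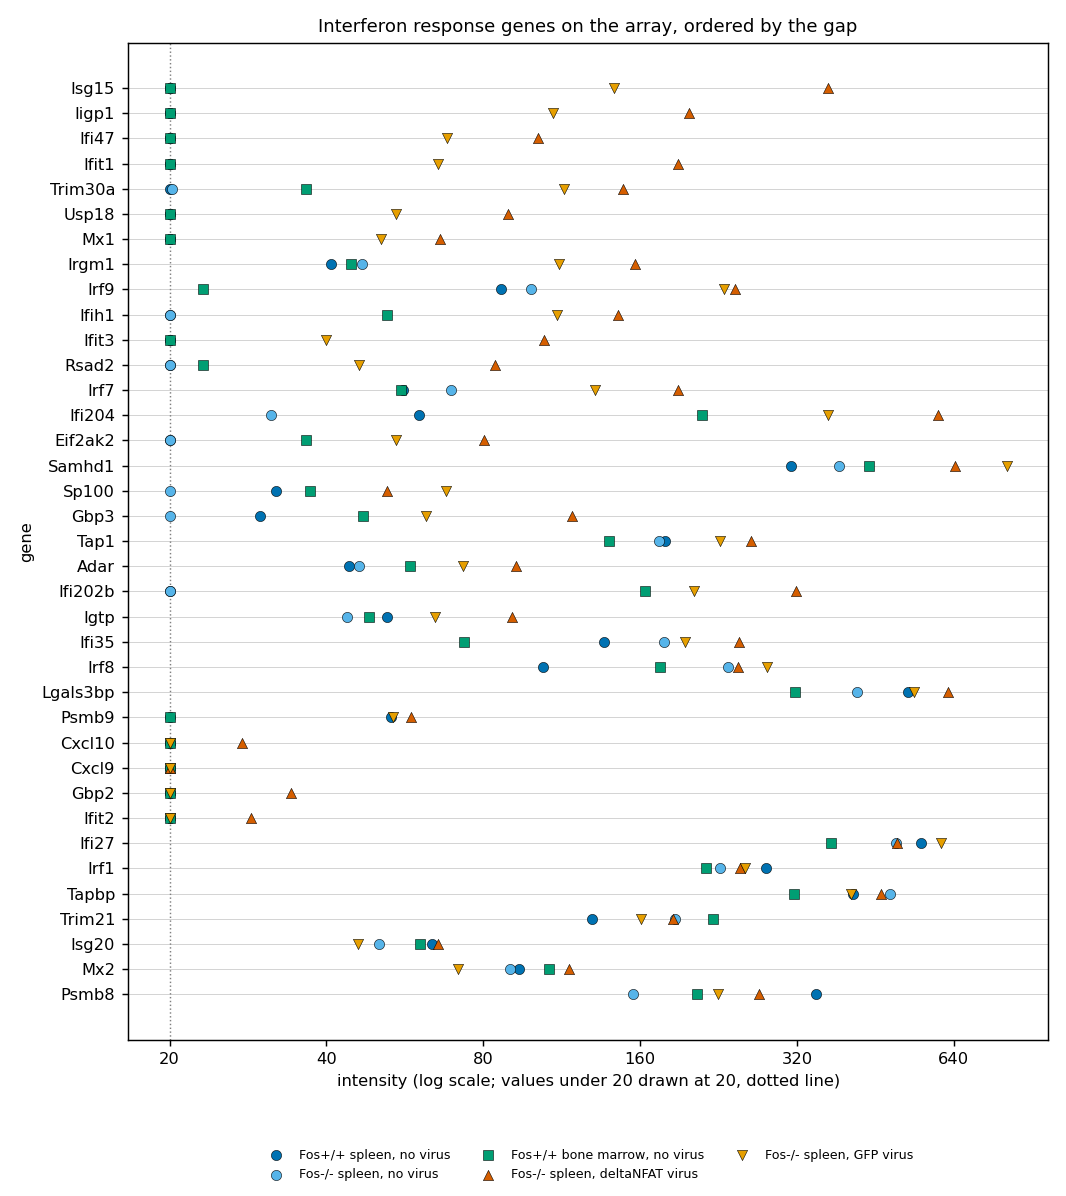
Intensity of the 37 interferon response genes on the array, 1 row a gene and 1 symbol an array, on a log scale with values under 20 drawn at 20 (dotted line). Genes are ordered by the gap between the sides: in the upper rows, from Isg15 to Ifih1, both virus symbols stand at least 2-fold to the right of every other, and in the lowest rows (Irf1, Tapbp, Psmb8) they mix with the rest.

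The promoters of the higher genes were searched for the ISRE core, written as GAAA, any 2 bases and GAAA again, and read on both strands (overlapping matches counted), in the 250 bases before the start of transcription (RefSeq, GRCm38.p6). A match was present for 223 of 6576 genes of the array that have a promoter in the table (3.39%). Of the higher genes 38 of 50 had a promoter there and 5 held a match (13.2%); of the lower genes 33 of 37 had one and 0 held a match. Of the 37 interferon response genes, 10 of 31 with a promoter held it (32.3%). The 5 higher genes with a match were Isg15, Ifit1, Irgm1, Irgm2 and Trim30a, and their promoters are printed because they carry the element that the pathway's transcription factors bind. They lie at chr4:156200819-156201068, minus strand (Isg15), chr19:34640639-34640888, plus strand (Ifit1), chr11:48871421-48871670, minus strand (Irgm1), chr11:58214727-58214976, plus strand (Irgm2) and chr7:104465194-104465443, minus strand (Trim30a). Sequences run 5' to 3' on the strand of the gene and end at the base before the start, with matches in capitals.
Isg15: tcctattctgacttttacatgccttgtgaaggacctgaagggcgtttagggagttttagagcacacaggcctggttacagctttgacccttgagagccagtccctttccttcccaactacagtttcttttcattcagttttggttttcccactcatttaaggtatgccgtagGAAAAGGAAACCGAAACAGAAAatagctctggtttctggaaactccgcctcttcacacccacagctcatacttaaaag
Ifit1: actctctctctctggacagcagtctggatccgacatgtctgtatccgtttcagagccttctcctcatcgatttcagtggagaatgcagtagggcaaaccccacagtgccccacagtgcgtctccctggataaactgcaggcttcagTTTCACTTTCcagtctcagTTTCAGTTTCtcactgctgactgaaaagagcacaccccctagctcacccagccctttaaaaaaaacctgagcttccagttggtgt
Irgm1: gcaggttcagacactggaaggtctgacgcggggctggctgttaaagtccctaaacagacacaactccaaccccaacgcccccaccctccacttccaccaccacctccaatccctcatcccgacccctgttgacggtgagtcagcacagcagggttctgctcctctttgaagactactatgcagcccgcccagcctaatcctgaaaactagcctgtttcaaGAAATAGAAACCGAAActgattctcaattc
Irgm2: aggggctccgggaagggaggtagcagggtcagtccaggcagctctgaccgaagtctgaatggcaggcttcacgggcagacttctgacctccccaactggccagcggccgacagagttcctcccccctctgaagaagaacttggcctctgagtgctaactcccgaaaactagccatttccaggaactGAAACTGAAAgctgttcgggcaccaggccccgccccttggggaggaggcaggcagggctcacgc
Trim30a: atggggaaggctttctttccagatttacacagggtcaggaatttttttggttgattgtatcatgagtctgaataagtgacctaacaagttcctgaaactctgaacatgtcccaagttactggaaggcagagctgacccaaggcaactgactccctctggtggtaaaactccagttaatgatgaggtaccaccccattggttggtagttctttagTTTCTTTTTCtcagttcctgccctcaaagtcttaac
Isg15, the interferon gene with the widest gap, holds 3 overlapping matches that begin 78 to 66 bases before the start. Ifit1 holds 2, at 104 and 85 bases, and Irgm1 2 overlapping ones, at 30 and 24 bases. Irgm2 holds 1 at 64 bases and Trim30a 1 at 36 bases, in the first of its promoters; another promoter of Trim30a in the table holds none. A match is a description of the letters and shows no binding. The STAT dimer element, written TTCNNNGAA and the same on both strands, was present for 2 of the 38 higher genes (5.26%), 2 of the 33 lower genes (6.06%) and 7.39% of the genes of the array. Of the interferon response genes 9 of 31 held it (29.0%), and of those counted as higher 0 of 7.

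The monocyte-attracting chemokines Ccl2 and Ccl7 were counted as higher beside the interferon genes. Ccl2 read 51.3 in Fos+/+ spleen, 70.1 in Fos-/- spleen and 38.0 in bone marrow, against 693 with deltaNFAT and 193 with GFP, 2.75-fold apart. Ccl7 read at most 31.1 without virus and 360 and 82.9 with it, 2.67-fold apart. Ccl8 read 171 and 55.2 against at most 30.8, 1.79-fold apart. In all 3 genes deltaNFAT read more than 3-fold above GFP. Of 32 chemokine and cytokine genes on the array, 2 were counted as higher and 0 as lower (0.461% and 0.400% of all genes). By any margin 4 lay apart upward and 1 downward, against 9.13% and 13.1% of all genes. Of the 32 genes 12 were under the floor everywhere, and the median difference of the list was 0.00. Without the bone marrow array 3 were counted as higher (3.95% of all genes) and 5 lay apart upward (15.9% of all genes).

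The widest gap of all belonged to Inmt, an indolethylamine N-methyltransferase. It read 10.8 in Fos+/+ spleen, 21.7 in Fos-/- spleen and 5.7 in bone marrow, against 729.5 with deltaNFAT and 1277 with GFP. The sides were 33.6-fold apart, and here GFP was the higher virus. Lifr, the receptor for leukaemia inhibitory factor, was counted by 2 probe sets: the first read 183 and 176 against at most 55.4 (3.17-fold apart), the second 136 and 149 against at most 58.8 (2.31-fold apart). Another lay apart in the same direction, at 281 and 276 against 176 in bone marrow, and 2 others were dim. Nampt, the rate-limiting enzyme of NAD salvage, read 164 and 142 against at most 43.3, 3.27-fold apart. Fcgr2b, the inhibitory receptor for immunoglobulin G, read 203 and 85.3 against at most 28.0, 3.05-fold apart.

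Further genes, named after their values were seen because they remained counted at a floor of 80, were bright on several arrays. Alas1, the first enzyme of haem synthesis, read 404, 321 and 353 without virus (Fos+/+ spleen, Fos-/- spleen, bone marrow) and 962 and 1104 with deltaNFAT and GFP, 2.38-fold apart. Rnase4, a secreted ribonuclease, read 27.9, 174 and 81.9 without virus in the same order and 500.2 and 443 with it, 2.54-fold apart. Gadd45a, a growth arrest and DNA damage gene, read 74.1, 154 and 108 without virus and 342 and 327 with it, 2.12-fold apart. In these genes the virus arrays lay close to each other, at most 1.15-fold apart. Myh9 was counted through a family probe set at 274 and 242, but its other probe set, at 1192 to 2214, overlapped between the sides.

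The other wide gaps upward were dim or not shared by a gene's other probe sets. Psmd1, a subunit of the proteasome, was under the floor without virus and read 76.4 with deltaNFAT and 133 with GFP, at least 3.82-fold apart. Pik3ca, the catalytic subunit of a PI3 kinase, read 91.7 and 96.0 against at most 27.5. Its other probe set gave 93.9 and 115 against 80.4 in bone marrow and 25.3 and 26.2 in the spleen arrays. Mtcp1 read 74.0 and 79.8 against values under the floor, at least 3.70-fold apart, while its other probe sets overlapped. Gm9706 (at least 4.37-fold) and Gm4788 (3.89-fold) were read by family probe sets.

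**Figure D3:**
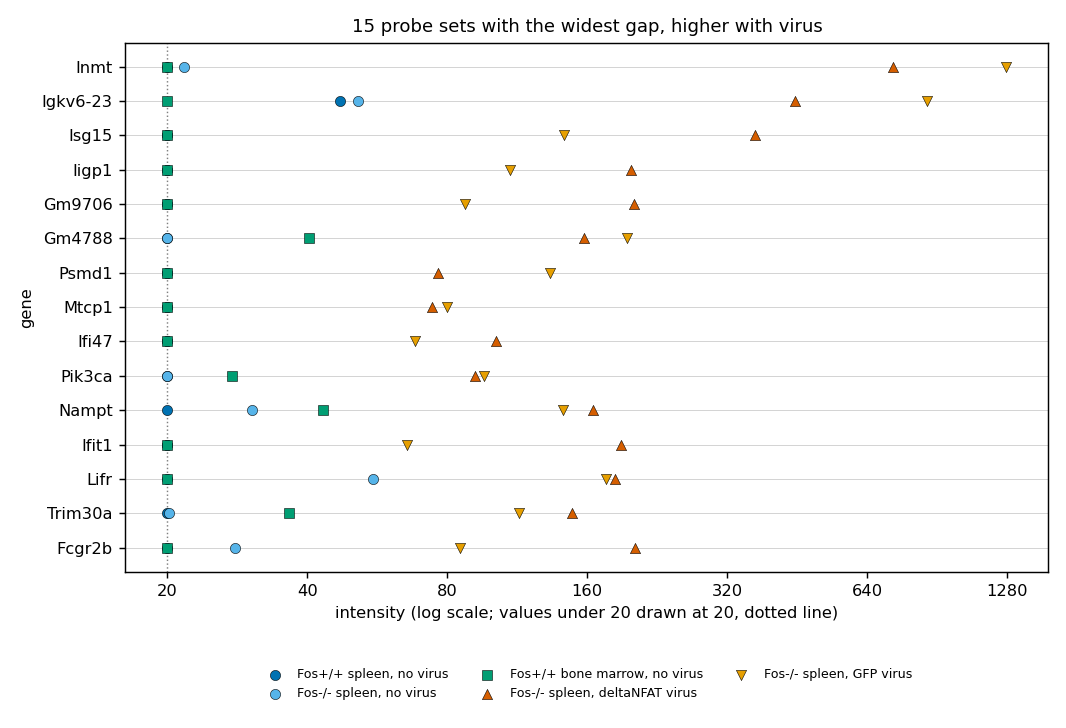
Intensity of the 15 probe sets with the widest gap on the higher side, 1 row a probe set (named by its gene) and 1 symbol an array, on a log scale with values under 20 drawn at 20 (dotted line). Both virus symbols stand to the right in each row; Inmt and Igkv6-23 read highest with GFP, Isg15, Iigp1 and Ifit1 with deltaNFAT.

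Some B lineage probe sets read higher and others lower. Igkv6-23, a kappa light chain variable gene read by a family probe set, gave 47.0, 51.4 and 10.5 without virus and 447 with deltaNFAT and 859.9 with GFP, 8.70-fold apart. Of 27 probe sets with 1 gene symbol for kappa genes, chosen after the values were seen, this was the single 2-fold gap, and 6 were bright in both virus arrays. The probe set 93086_at is paired with several kappa genes, Igkv6-23 and Igkc among them, and so entered no count. It read 967.5 with deltaNFAT and 1450 with GFP against 144 to 254.5 without virus, 3.80-fold apart. Ighm, the heavy chain of IgM, read 287, 278 and 292 without virus and 603 and 826 with it, 2.06-fold apart. None of its other 15 probe sets lay apart upward and 1 lay apart downward. However, most of the 15 were under the floor on every array and so could not lie apart. Cd79b, which signals for the B cell receptor, read 116, 108 and 131 without virus and 44.6 and 27.5 with it, 2.43-fold apart downward. Its partner Cd79a read 46.6, 52.0 and 63.3 against values under the floor, at least 2.33-fold apart. Of 10 B cell genes on the array 1 was counted as higher and 2 as lower (0.461% and 0.400% of all genes), and Ms4a1, named after its values were seen, lay apart downward by 1.19-fold. The 2-fold counts were the same without the bone marrow array.

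No list had more than 2 genes counted as lower. The pentraxin Ptx3, a secreted pattern recognition protein, read 229.5, 215 and 227 without virus and 66.1 and 62.3 with it, 3.25-fold apart, with little spread within either side. Actn1, an actin crosslinker, read 397, 331 and 257 against 92.9 and 95.4 by 1 probe set, 2.70-fold apart. Of its other probe sets 1 lay apart downward and the brightest overlapped. Nr1h3, the oxysterol receptor LXR-alpha, read 319.9, 238 and 184 against 70.2 and 80.8, 2.28-fold apart. Ltbr, the lymphotoxin receptor, read 284, 231 and 218.5 against 102 and 102, 2.13-fold apart. These 4 were the genes on the lower side that were still counted at a floor of 80; Nr1h3 and Ltbr are named after their values were seen.

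The remaining wide gaps downward were dimmer. Tomm34, a mitochondrial import cochaperone, read 264, 119.7 and 178 against 28.0 and a value under the floor, 4.28-fold apart and the widest of this side. Krt12 (3.74-fold), Col7a1 (3.51-fold), Aloxe3 (at least 3.38-fold) and Psmg3 (3.30-fold) followed, with at most 31.5 in any virus array. Notch2 lay at least 3.48-fold apart by 1 probe set, while its other probe set lay apart in the opposite direction. Cdca7l, Fgfr3 and St8sia5 were read at no more than 23.2 with either virus. Aldh1a7, an aldehyde dehydrogenase, read 96.2, 150.1 and 251 against 24.9 and 33.0, 2.92-fold apart. The integrin chain Itga5, part of the fibronectin receptor, read 164, 91.7 and 51.2 against values under the floor, at least 2.56-fold apart. For H2-M10.1, 1 probe set was counted as higher and another as lower, so no direction can be given.

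**Figure D4:**
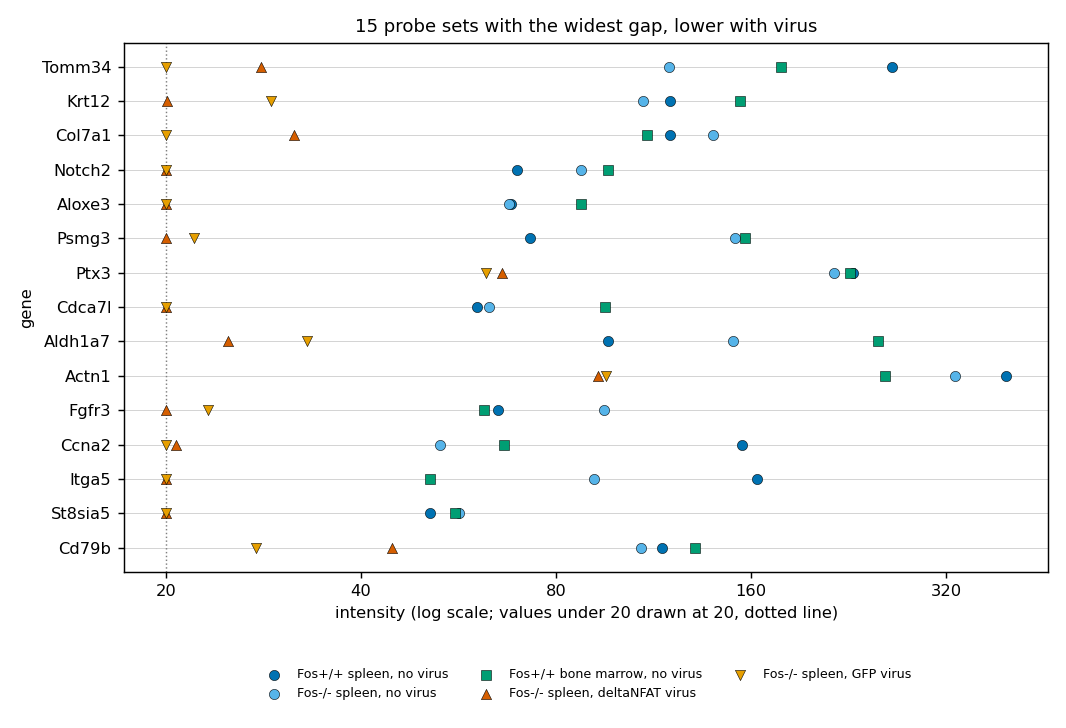
Intensity of the 15 probe sets with the widest gap on the lower side, 1 row a probe set (named by its gene) and 1 symbol an array, on a log scale with values under 20 drawn at 20 (dotted line). Both virus symbols stand to the left in each row and many of them at the dotted line; in Ptx3 and Actn1 all 5 arrays stand clear of it.

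Proliferation genes lay toward the lower side against all 3 arrays without virus, but by any margin not against Fos-/- spleen alone. Ccna2, the S-phase cyclin, read 154.9, 53 and 66.4 without virus and 20.7 with deltaNFAT and under the floor with GFP, 2.56-fold apart. Of 34 genes on the array 1 was counted as lower and 0 as higher, and 9 lay apart downward by any margin and 0 upward, against 13.1% and 9.13% of all genes. Mcm5, a subunit of the replicative helicase, lay 1.54-fold apart, Cks1b 1.29-fold, Mcm2 and Mcm7 1.19-fold each. In 7 of these 9 the Fos-/- spleen array was the lowest without virus: Birc5 read 158 and 118 in the Fos+/+ arrays, 46.7 in Fos-/- spleen and 39.0 and 42.6 with virus. The median difference of the list was -0.72, and its summed intensity was 2298 and 1893 with virus, 2378 in Fos-/- spleen without virus and 4172 and 4133 in the Fos+/+ arrays. Against Fos-/- spleen alone 1 gene was higher and 2 lower by 2-fold (4.94% and 2.05% of all genes). By any margin 6 of the 34 lay above that array (17.6%) and 10 below it (29.4%). These shares were near the 20.4% and 30.5% of all genes.

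Oxidative phosphorylation genes showed small differences in the same direction. Of 27 on the array 0 were counted at 2-fold, but 12 lay apart downward and 0 upward, against 13.1% and 9.13% of all genes, and the median difference was -0.32. Uqcrc1, of complex III, read 997, 523 and 713 without virus and 423 and 419.8 with it, 1.23-fold apart. Sdhc, of complex II, lay 1.27-fold apart and Atp5d, of the ATP synthase, 1.65-fold by its brightest probe set.

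Osteoclast genes did not separate the sides at 2-fold. Of 16 on the array 0 were counted in either direction, and Clcn7 (1.08-fold) and Itgav (1.01-fold) lay apart downward, 2 of 16 against 13.1% of all genes. The median difference was -1.13, and the summed intensity was 18179 and 13493 in the Fos+/+ arrays against 2481 to 4786 in the 3 Fos-/- arrays. Ctsk, the collagen-degrading protease, read 2862 in Fos+/+ spleen, 2495 in the marrow array, 61.3 in uninfected Fos-/- spleen, and 372 and 79.3 after the deltaNFAT and GFP viruses. Nfatc1, the transcription factor that drives osteoclast formation, read 751.5, 325, 23.5, 82.7 and 23.4 in the same order of arrays. In both genes GFP read close to Fos-/- spleen without virus and deltaNFAT above it. Fos overlapped too. Its brighter probe set read 848.5 and 614 in the Fos+/+ arrays, 426 in Fos-/- spleen and 581 and 607 with virus, so it was clearly detected in all 3 arrays labelled Fos-/-. Every culture also held stromal cells, and whether the probes lie in the deleted part of the gene is not stated in the labels, so this reading does not check the genotype labels.

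Macrophage markers were split. Of 25 genes on the array 1 (Fcgr2b, above) was counted as higher and 0 as lower, and 6 lay apart upward and 1 downward, against 9.13% and 13.1% of all genes. Without bone marrow 3 were counted as higher (3.95% of all genes) and 9 lay apart upward (15.9%). Mrc1, the mannose receptor, read 58.1 in Fos+/+ spleen, 214 in Fos-/- spleen, 596 in bone marrow, 1140.4 with deltaNFAT and 1045 with GFP, 1.75-fold apart. Ctss, a protease of antigen processing, lay 1.35-fold apart and Aif1 1.36-fold. Spi1, the myeloid transcription factor PU.1, went the other way, with 336 and 340.0 with virus and 505 to 1024 without, 1.48-fold apart. The general markers Csf1r, Cd14, Tyrobp and Lyz2 overlapped. The summed intensity of the list was 24468 and 25675 with virus and 18195 to 22625 without. The part of macrophage number in the interferon result was not tested.

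The other cell type lists gave few counts, to be read against 9.13% of all genes apart upward and 13.1% downward. Of 14 neutrophil genes 0 were counted and 1, Fpr2, lay apart upward (1.15-fold). Without bone marrow 2 of the 14 were counted as higher (3.95% of all genes) and 9 lay apart upward (15.9%). Against Fos-/- spleen alone 9 lay apart upward as well (20.4% of all genes). Of 30 stromal and matrix genes 0 were counted, 4 lay apart upward and 5 downward, the widest being Col6a2 at 1.44-fold downward. Erythroid (9 genes), mast cell (12), megakaryocyte (3) and T and NK cell (14) genes gave 0 counts and 0 genes apart. However, only 3, 2, 1 and 1 of them, in this order, were bright enough to be counted either way. Of 14 MHC class II and dendritic cell genes 0 were counted by the brightest probe set, although a second probe set of Cd86, a costimulatory ligand, read 51.2 and 75.0 against values under the floor. The brightest one of Cd86 read 167 and 195 against 30.5 to 101, 1.64-fold apart.

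**Figure D5:**
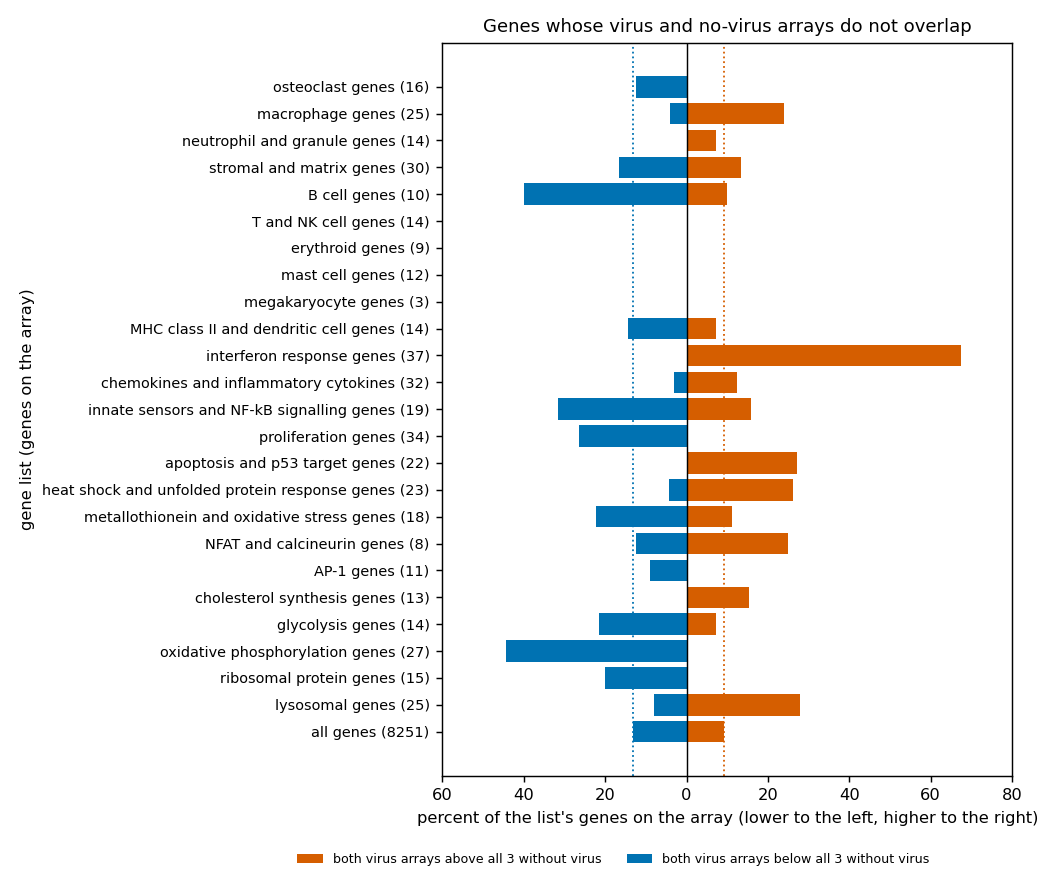
Share of each list's genes on the array (number in brackets) in which both virus arrays lie above (right, orange) or below (left, blue) all 3 arrays without virus, by any margin and with the brighter side at 40 or more. Dotted lines mark the shares over all 8251 genes (9.13% higher, 13.1% lower); the interferon list reaches farthest to the right with 25 of 37 genes and no bar to the left.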

How the data were processed

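Total RNA of 5 co-cultures was measured on 1 one-colour oligonucleotide array each, with 12488 probe sets. The authors deposited intensity values on a linear scale, 1 per probe set and array; no label or header names the software. The deposited intensities were already scaled and background-subtracted, since each array had the same mean of 100.1 once 2% of values were trimmed at either end, and 20.3 to 22.4% of its values were not above 0. They were used as deposited. Values under 20 were set to 20 and log2 was taken (Python 3.11.15, pandas 2.3.3).

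Gene names came from the platform annotation: 10833 probe sets had 1 symbol, 396 several and 1193 none, beside 66 controls. By gene identifier 10817 matched a RefSeq table (GRCm38.p6, names only), which changed 0 symbols. Counts over genes used the brightest probe set, which left 8251 genes. Named were the 15 widest gaps each way, members of 24 gene lists past the gap, up to 3 members a list with the widest gap, the genes at the limit, Fos and Nfatc1; every other gene named was chosen after its values were seen, also where the sentence does not say so. The comparison and the lists were chosen with earlier results of these data known. The counting was tested on simulated data. With 1 array per condition, precision is limited by the number of arrays.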

Additional observations from a re-analysis of the deposited data

Results flagged for a closer look

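Among 1589 probe sets with no gene symbol or several, which entered no count of the report, 11 showed the 2-fold gap upward and 1 downward. They are given by identifier, with the fold between the sides, because the annotation used here pairs them with no gene or with more than 1. The widest upward was 100322_at at 4.52-fold, without a symbol, which read 38.5 to 50.3 without virus, 227 with deltaNFAT and 377 with GFP. Among those with several symbols, 93321_at lay at least 4.26-fold apart and read 124.5 and 85.2 with deltaNFAT and GFP. The probe set 93086_at lay 3.80-fold apart (967.5 and 1450.4 against 144 to 254.5). The probe set 94224_s_at lay 3.34-fold apart (549 and 322 against 13.3 to 96.4) and 102906_at at least 2.12-fold (104.5 and 42.4). Without a symbol were 100721_f_at (at least 3.53-fold), 97564_f_at (at least 3.19-fold), 100742_at (at least 2.60-fold), 92291_f_at (2.28-fold), 101853_f_at (2.16-fold) and 98007_at (2.09-fold). In 101853_f_at and 92291_f_at bone marrow read 125 and 79.0, above both spleen arrays without virus. Downward, 161761_r_at read 88.9 to 96.4 without virus and was under the floor with either virus, at least 4.45-fold apart.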

How the results depend on the processing

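The fold, scaling, probe sets and arrays were varied 1 at a time, and the floor both with and without the brightness minimum. Scaling to a common trimmed mean gave the same 51 higher and 37 lower probe sets, but the arrays already shared that mean, so little could change. Dropping the brightness filter could change neither count, since a 2-fold gap above a floor of 20 already requires 40. Quantile normalization gave 66 and 41, unsuffixed probe sets 42 and 30, and averaging the probe sets of each gene 34 and 25 genes. With the brightness minimum set to 20, 80 and 160, floors of 10, 40 and 80 gave 85 higher and 57 lower, 32 and 13, and 13 and 4. With the floor changed alone and the minimum kept at 40, settings added after seeing the data, they gave 51 and 37, 32 and 13, and 13 and 4. These counts were fixed by the rule: a floor of 10 could not change the main counts. Floors of 40 and 80 could not differ from the first series. Of the interferon list 11, 6 and 1 genes were counted in the first series and 10, 6 and 1 in the second, the 1 being Irf9. The size of the gap mattered as well: 155 and 116 at 1.5-fold, 16 and 8 at 3-fold, and 438 and 267 for a 2-fold difference of side means, which lets the sides overlap.

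Leaving out an array can only widen a gap, so no count can be lost by it, and the counts ran from 66 to 403 higher and from 66 to 126 lower. Without Fos+/+ spleen they were 66 and 66, without Fos-/- spleen 95 and 126, without bone marrow 403 and 81, without deltaNFAT 98 and 119, and without GFP 125 and 84. Against Fos-/- spleen alone they were 503 and 219. Of the 26 higher and 18 lower named probe sets that were counted, 1 and 1 were kept under every alternative (Inmt and Ptx3), counting a probe set left out with the suffixed identifiers as lost. The list counts without bone marrow and against Fos-/- spleen alone were added after seeing the data. No named count changed direction, but a change of floor or fold, or an array left out, could not have reversed one. No paired analysis was possible because each condition has 1 array.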

Other observations

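Of 19 innate sensor and NF-kB genes on the array 0 reached the 2-fold gap, 3 lay apart upward and 6 downward, against 9.13% and 13.1% of all genes, and the median difference was -0.03 on the log2 scale. Relb, a subunit of the non-canonical pathway, read 134 to 184 without virus and 109 with deltaNFAT and 90.8 with GFP. Rela, the main transactivating subunit, read 704 to 785 without virus and 612 and 567 with it, 1.15-fold apart. Tbk1, the kinase that activates interferon regulatory factors, went the other way with 250.3 and 232 against 128 to 206, 1.13-fold apart.

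Redox and lysosomal genes differed by small margins. Gsr, the glutathione reductase, read 577 in Fos+/+ spleen, 382.5 in Fos-/- spleen, 469 in bone marrow, 207 with deltaNFAT and 167 with GFP, 1.85-fold apart downward and close to the limit. The metallothionein Mt2 read 1907 to 2556 without virus, 1585 with deltaNFAT and 554 with GFP, 1.20-fold apart. Of 18 metallothionein and oxidative stress genes 0 were counted. By any margin 2 lay apart upward and 4 downward, against 9.13% and 13.1% of all genes. Their median difference was 0.03 on the log2 scale. Of 25 lysosomal genes 0 were counted, 7 lay apart upward and 2 downward, against 9.13% and 13.1% of all genes. Scarb2, a lysosomal membrane receptor, read 239 and 269 against 90.5 to 154, 1.55-fold apart. Of 22 apoptosis and p53 target genes 1, Gadd45a, was counted, and 6 lay apart upward and 0 downward, against the same shares. Gadd45b read 59.0 and 57.1 against at most 35.1, 1.63-fold apart.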
